A study of Homo sapiens with 4 samples.

Results

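The mRNAs of 10 cleavage and polyadenylation factors were examined in K562-U2AF1_S34F cells: CPSF1, CPSF2, CPSF3, CPSF4, CPSF6, CSTF1, CSTF2, CSTF3, NUDT21 and WDR33. Each factor was found by its symbol among the 62778 entries of the gene table that name a gene, and where several entries named it the one with the highest mean count was taken. K562 is an established human erythroleukemia line, and the cells of every library here overexpress the S34F mutant of U2AF1, the subunit of the U2AF splicing factor that contacts the 3′ splice site. Libraries 1 and 2 of the DMSO group came from cells given the solvent, and libraries 1 and 2 of the SF1-8 group from cells given 30 μM SF1-8, a small molecule directed at the U2AF homology motif domain of U2AF1. Both groups were treated for 48 h. No library of cells with wild-type U2AF1 alone was analysed here, and neither the promoter of the transgene nor whether the line is 1 clone is given in the sources used here. RNA was depleted of ribosomal RNA and not selected for poly(A) tails. The labels do not say that the libraries of a group came from separate cultures, so p-values measure only the spread between these libraries, which may be technical.

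Almost every human mRNA is cut downstream of a hexamer, most often AATAAA in DNA letters, and then given a poly(A) tail. The cleavage and polyadenylation specificity factor (CPSF) reads the hexamer and holds the nuclease, the cleavage stimulation factor (CSTF) binds the U- or GU-rich stretch beyond the cut, and cleavage factor I (CF I) binds UGUA motifs ahead of it. The levels of several of these proteins are known to bear on which of several poly(A) sites a transcript uses, and the large U2AF subunit is known to contact this machinery when the last intron is spliced.

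The factors' own mRNAs end in such sites, and the hexamer is given here because it is the element that CPSF reads. In the GENCODE annotation of GRCh38, the last 50 bases of the principal transcript held AATAAA in 8 of the 10 factors, ATTAAA in CPSF4 and neither in CPSF1, against 59.7%, 13.4% and 26.9% of 19552 coding genes. The search covered the sequence of the transcript only, not its complement, and AATAAA was looked for first. TGTA, the DNA form of the CF I motif, lay in the last 100 bases of 6 factors and of 50.5% of all coding genes. These are matches of letters and not measured sites of cleavage. The 30 bases around the hexamer, in capitals, were read 5′ to 3′ on the strand of the gene from GENCODE transcript sequences placed on GRCh38 for 8 of the factors.
CPSF4, chr7:99457342-99457371, plus strand: ttttatgaaatggATTAAAgcttgtttttt
CPSF2, chr14:92172113-92172142, plus strand: tagcaattgtgaAATAAAcagattctgaag
CPSF3, chr2:9473062-9473091, plus strand: tttgttacctaaAATAAAatgcattcgttt
CPSF6, chr12:69274324-69274353, plus strand: tcttgtattgaaAATAAAacaaacttttga
NUDT21, chr16:56429138-56429167, minus strand: tattgtcatttcAATAAAaaatatttgaaa
CSTF1, chr20:56406330-56406359, plus strand: cgtgatttctgaAATAAActttatatacaa
CSTF2, chrX:100840889-100840918, plus strand: tctgtgacttgaAATAAActttgaacacaa
CSTF3, chr11:33084586-33084615, minus strand: agtcctttaaaaAATAAAaggattcagaaa
In these 8 the hexamer ended between 11 bases (CPSF4) and 22 bases (CPSF3 and CSTF1) before the end of the annotated transcript. The annotated coding transcripts ended at 1 position for CPSF2, NUDT21 and CSTF1 and at up to 4 positions for CSTF3. The deposited values are per gene, so the use of these ends was not measured here.

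All 10 factors were expressed in every library and passed the filter on low counts. With SF1-8, none of the 10 differed from DMSO at an adjusted p under 0.05 in edgeR (quasi-likelihood test, Benjamini-Hochberg adjustment over 26167 genes), while 0.0420% of those genes, 11 in number, did. DESeq2 also called 0 of the 10, and 164 of all genes tested. At an unadjusted p under 0.05, 1 of the 10, CPSF4, was higher with SF1-8. Of all genes tested, 4.33% were under that level, 1.78% higher and 2.54% lower. For 9 of the 10, the 95% interval of the fold change lay within 1.5-fold either way, as it did for 30.7% of all genes tested, and CPSF6 was the exception. The median log2 fold change of the 10 was 0.036 against -0.011 over all genes tested, and the median of its absolute size 0.056 against 0.216. The comparison with all genes was not matched for level. All 10 had a mean FPKM of at least 5, as did 5765 of the 26167 genes tested. Among 68 tested genes of other 3′ end lists, 57 had an interval within 1.5-fold, and their median absolute log2 fold change was 0.084. The log2 fold change was above 0 for 9 of the 10 and for 48.4% of all genes tested. Under TPM scaling 8 of the 10 lay below 0, while the median of all genes moved to -0.135. Relative to that median, only CPSF1 and WDR33 were below 0.

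**Figure D1:**
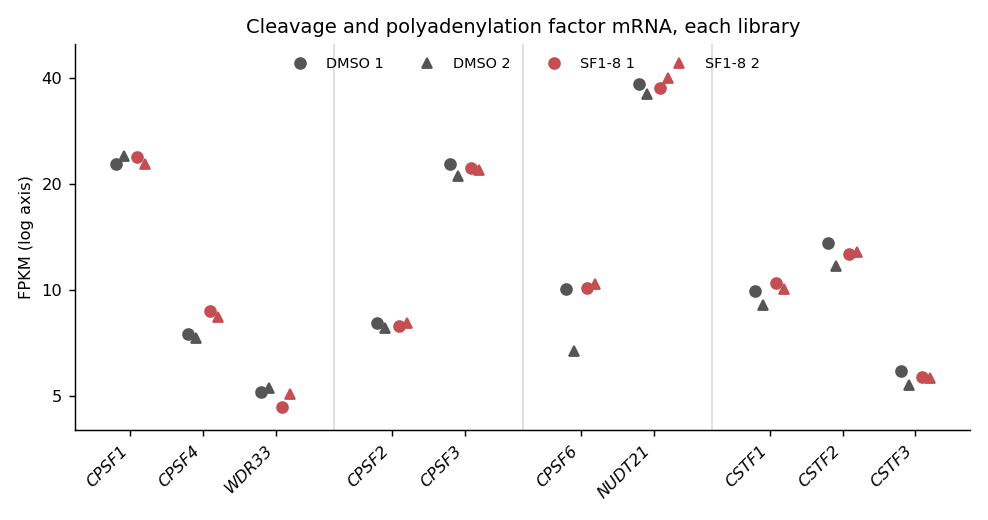
FPKM of the 10 factors in each of the 4 libraries, with points for the DMSO and the SF1-8 libraries. NUDT21 stands above the other 9 in all 4 libraries, and the DMSO 2 point of CPSF6, at 6.72, lies below the other 3, which sit between 10.1 and 10.4.

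Levels are given as FPKM (fragments scaled by the authors for transcript length and library depth), which allows genes to be set side by side. Values in the DMSO and in the SF1-8 libraries are in the order 1, 2. NUDT21 was the most abundant of the 10, with a mean of 38.1 over the 4 libraries and no overlap with the next. CPSF1 and CPSF3 followed with means of 23.4 and 22.0 and overlapping ranges. CSTF2 came next at 12.7, clear of its neighbours on both sides. CSTF1, CPSF6, CPSF4 and CPSF2 lay between 9.88 and 7.96, and in that order the range of each overlapped that of the next. CSTF3 at 5.65 and WDR33 at 5.04 were the lowest, and their ranges did not overlap. In FPKM the nuclease subunit CPSF3 was thus at 2.71 to 2.83 times the level of its partner CPSF2, and CPSF1 at 4.46 to 5.11 times that of WDR33. These ratios depend on the length set for each entry. In counts, not scaled for length, CPSF2 was above CPSF3 in every library, with 8558 against 6311 in DMSO 2. The count of WDR33 there was 10945 against 12635 for CPSF1. Whether the lengths used match the transcripts of these cells was not tested.

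In the CPSF module that reads the hexamer, CPSF1 is the large scaffold, while CPSF4 and WDR33 contact the hexamer itself. CPSF1 (chromosome 8, 144393229 to 144409335 in the GRCh38 coordinates of the table) measured 22.9 and 24.1 FPKM in the DMSO libraries and 23.9 and 22.8 FPKM in the SF1-8 libraries. The groups overlapped in part, with a log2 fold change of 0.016 (standard error 0.0837, 95% interval -0.20 to 0.23) that fell below 0 without DMSO 1, at -0.059, and without SF1-8 1, at -0.021. The CPSF1 entry also names the microRNA genes MIR939, MIR1234 and MIR6849, whose reads cannot be told apart from it.

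CPSF4 (chromosome 7, 99438922 to 99457371), a zinc finger protein, measured 7.49 and 7.29 FPKM in the DMSO libraries and 8.70 and 8.40 FPKM in the SF1-8 libraries. Both SF1-8 libraries were above both DMSO libraries, by more than the difference within either group. The log2 fold change was 0.24 (standard error 0.0841, 95% interval 0.024 to 0.45), a level 17.9% higher, with unadjusted p = 0.0354 and adjusted p = 0.970 in edgeR (quasi-likelihood test). With any 1 library left out it lay between 0.21 and 0.27 and its unadjusted edgeR p was above 0.05, as was the DESeq2 p of 0.052 and the edgeR p of 0.0713 with the replicate number as a block. With limma on TPM, which moved the median of all genes to -0.135, the log2 fold change of CPSF4 was 0.074 (unadjusted p = 0.690 in limma), or 0.21 relative to that median. The whole CPSF4 entry lies opposite an entry on the other strand that holds ATP5MF, PTCD1 and their readthrough, with a mean count equal to 269% of that of CPSF4. That entry measured 13.4 and 11.6 FPKM in the DMSO libraries and 13.1 and 14.9 FPKM in the SF1-8 libraries, a log2 fold change of 0.19 (standard error 0.0947). Exons of the readthrough cover 157 bases, or 3.69%, of the exonic bases of CPSF4, and those of AC073063.1 cover 179 bases, or 4.21%. Whether strand was used in counting is not given in the sources used here, and the part of the opposite entry in the CPSF4 value was not tested.

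WDR33 (chromosome 2, 127700533 to 127811187), a WD repeat protein, measured 5.13 and 5.29 FPKM in the DMSO libraries and 4.67 and 5.05 FPKM in the SF1-8 libraries. Both SF1-8 libraries were lower in FPKM, though not in TMM-scaled CPM, and the gap between the groups was smaller than the difference within the SF1-8 group. WDR33 was the sole factor with a log2 fold change below 0, at -0.074 (standard error 0.0829, 95% interval -0.29 to 0.14). That value rested on single libraries, at -0.0049 without DMSO 2, -0.020 without SF1-8 1, -0.12 without SF1-8 2 and -0.14 without DMSO 1. The WDR33 entry also names RNY4P7, whose reads cannot be told apart from it. A pair of short entries named WDR33 lie inside the gene on the opposite strand. The first measured 2.33, 2.61, 2.18 and 2.72 FPKM and the second 2.22, 1.92, 1.99 and 1.46 FPKM in DMSO 1, DMSO 2, SF1-8 1 and SF1-8 2, and neither was added to WDR33. The exons of SFT2D3 on the other strand cover 25.6% of the exonic bases of WDR33, and the SFT2D3 entry itself held no counts.

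In the cleavage module, CPSF3 is the endonuclease that cuts the pre-mRNA, and CPSF2 is its related partner, which lacks the active site. CPSF3 (chromosome 2, 9423651 to 9473101) measured 22.9 and 21.2 FPKM in the DMSO libraries and 22.2 and 21.9 FPKM in the SF1-8 libraries. The SF1-8 libraries lay between the DMSO libraries, with a log2 fold change of 0.028 (standard error 0.0721, 95% interval -0.16 to 0.21). CPSF2 (chromosome 14, 92121969 to 92172145) measured 8.09 and 7.80 FPKM in the DMSO libraries and 7.90 and 8.06 FPKM in the SF1-8 libraries. The groups overlapped again on this scale, with a log2 fold change of 0.034 (standard error 0.0685, 95% interval -0.14 to 0.21).

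CF I is built from a pair of NUDT21 subunits, which bind UGUA, and a pair of larger subunits, CPSF6 or its paralog CPSF7. NUDT21 (chromosome 16, 56429133 to 56451332) measured 38.5 and 36.1 FPKM in the DMSO libraries and 37.6 and 40.1 FPKM in the SF1-8 libraries. The groups overlapped on this scale, with a log2 fold change of 0.084 (standard error 0.0662, 95% interval -0.085 to 0.25), or 0.048 without SF1-8 2 and 0.13 without SF1-8 1. CPSF6 (chromosome 12, 69239569 to 69274358) measured 10.1 and 6.72 FPKM in the DMSO libraries and 10.1 and 10.4 FPKM in the SF1-8 libraries. Its log2 fold change was 0.32 (standard error 0.170, 95% interval -0.11 to 0.76, adjusted p = 0.970 in edgeR), the largest of the 10 and also the least certain. The groups did not overlap, yet DMSO 1 lay close to both SF1-8 libraries and DMSO 2 was apart from all of them. In log2 TMM-scaled CPM, DMSO 2 was 0.50 lower than DMSO 1. Among 5765 genes tested with a mean FPKM of at least 5, 8.05% differed at least this much between the DMSO libraries. Without DMSO 2 the log2 fold change was 0.10, and without DMSO 1 it was 0.60 (unadjusted p = 0.00126, adjusted p = 0.283 in edgeR).

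The ratio of CPSF6 to NUDT21 in FPKM carried the same pattern, at 0.261 and 0.186 with DMSO and 0.269 and 0.260 with SF1-8, with DMSO 2 apart from the other 3 libraries. CPSF7, whose product takes the place of CPSF6 in part of the complexes, measured 16.2 and 14.0 FPKM in the DMSO libraries and 15.5 and 15.5 FPKM in the SF1-8 libraries, with a log2 fold change of 0.064 (standard error 0.0805). In FPKM, CPSF7 was thus above CPSF6 in every library. The ratio of CPSF6 to CPSF7 was 0.621 and 0.480 in the DMSO libraries and 0.655 and 0.671 in the SF1-8 libraries. In counts, not scaled for length, CPSF6 was above CPSF7 in every library, with 8163 against 6858 in DMSO 2. The summed CPSF6 and CPSF7 level over that of NUDT21 was 0.682 and 0.574 with DMSO and 0.681 and 0.647 with SF1-8, which overlapped between the groups.

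CSTF holds CSTF2, the subunit that binds the downstream RNA, CSTF3, the scaffold, and CSTF1, a WD repeat protein. CSTF1 (chromosome 20, 56392371 to 56406362) measured 9.91 and 9.07 FPKM in the DMSO libraries and 10.5 and 10.1 FPKM in the SF1-8 libraries. Both SF1-8 libraries were higher than both DMSO libraries, and the log2 fold change of 0.14 (standard error 0.0836, 95% interval -0.071 to 0.35, unadjusted p = 0.149 in edgeR) did not pass. CSTF2 (chromosome X, 100820359 to 100841520) measured 13.6 and 11.7 FPKM in the DMSO libraries and 12.6 and 12.8 FPKM in the SF1-8 libraries. The SF1-8 libraries lay between the DMSO libraries, with a log2 fold change of 0.038 (standard error 0.0957, 95% interval -0.21 to 0.28), which was -0.025 without DMSO 2 and 0.11 without DMSO 1. CSTF3 (chromosome 11, 33077188 to 33161531) measured 5.91 and 5.39 FPKM in the DMSO libraries and 5.67 and 5.63 FPKM in the SF1-8 libraries. Here too the SF1-8 libraries lay inside the DMSO range, with a log2 fold change of 0.028 (standard error 0.0837, 95% interval -0.19 to 0.24). On the other strand, exons of TCP11L1 cover 9.10% and those of LINC00294 6.11% of the exonic bases of CSTF3, and the log2 fold changes of their entries were 0.071 and 0.22.

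Among the CSTF subunits, the FPKM ratio of CSTF2 to CSTF3 was 2.17 to 2.30 over the 4 libraries. That of CSTF1 to CSTF3 was 1.68 in both DMSO libraries and 1.84 and 1.79 with SF1-8. In counts, not scaled for length, CSTF2 was below CSTF3 in every library, with 2625 against 3279 in DMSO 2. CSTF2T, the paralog of CSTF2, measured 17.4 and 16.5 FPKM in the DMSO libraries and 17.2 and 16.4 FPKM in the SF1-8 libraries. It was above CSTF2 in every library, with a ratio of CSTF2 to CSTF2T of 0.707 to 0.782, and its log2 fold change was 0.014 (standard error 0.0772). No stretch of at least 200 bases with 95% identity was found between CSTF2 and CSTF2T transcripts.

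**Figure D2:**
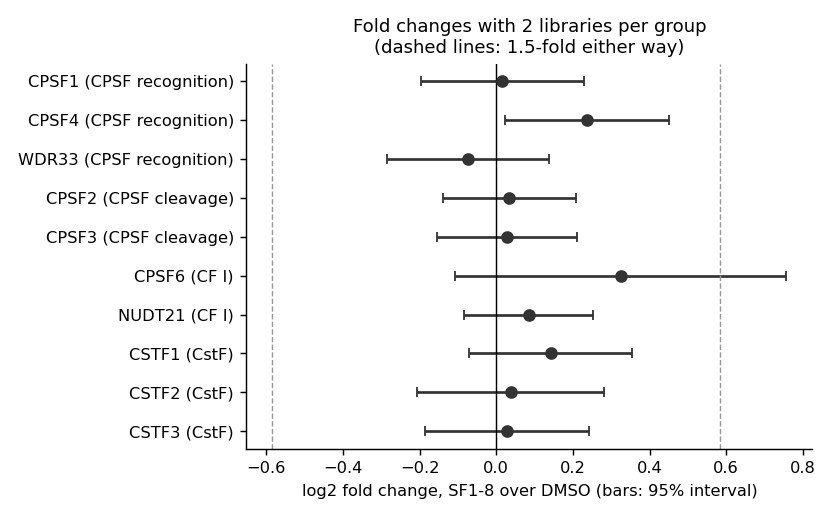
Log2 fold change (SF1-8 against DMSO) of the 10 factors by edgeR, grouped by module, with 95% intervals. The interval of CPSF4 alone excludes 0, and that of CPSF6, from -0.11 to 0.76, is the widest.

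Measured by TMM-scaled CPM, the share of a library's counts, the groups did not overlap for 5 of the 10, CPSF4, CPSF2, CPSF6, NUDT21 and CSTF1, all higher with SF1-8, while 17.3% of all genes tested were higher and 18.1% lower without overlap. Measured by FPKM, 3 of the 10 were higher without overlap, CPSF4, CPSF6 and CSTF1, and 1, WDR33, was lower, beside 14.2% and 20.0% of all genes tested. In a design of 2 against 2 libraries an exact two-sided permutation test cannot go under p = 0.333. In TMM-scaled CPM, the median absolute log2 difference between libraries of 1 group was 0.11 with DMSO and 0.084 with SF1-8. This was over the 5765 genes with a mean FPKM of at least 5.

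**Figure D3:**
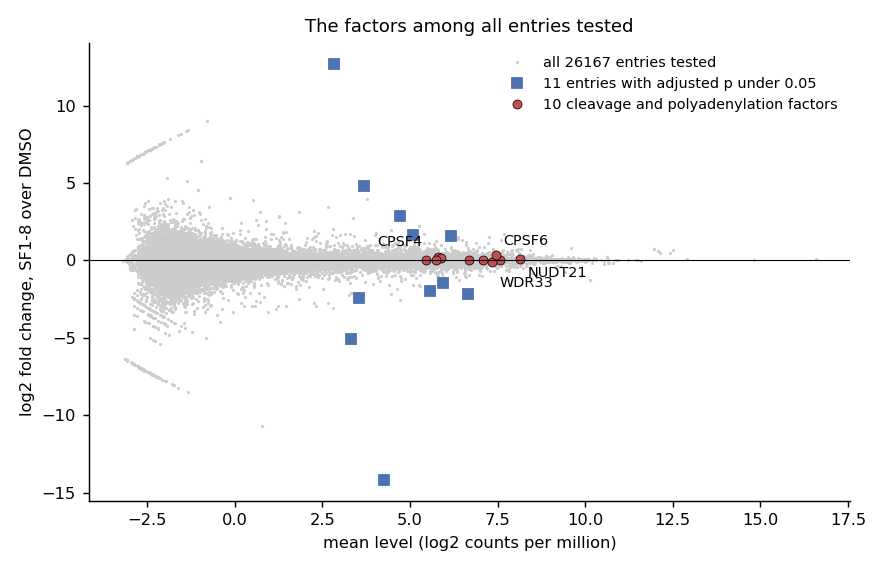
Log2 fold change of every gene tested against its mean level, with the 10 factors and the 11 genes past the adjusted threshold marked. The 10 factors lie between -0.074 and 0.32, close to the line at 0.

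The other genes of mRNA 3′ end formation, taken from lists of 69 genes, of which 68 were tested, gave 0 calls at the adjusted threshold in edgeR and 0 in DESeq2. Over all 26167 genes tested, edgeR called 11 and DESeq2 164. At an unadjusted p under 0.05 in edgeR, 3 of the 68 were higher, ZC3H14, INTS14 and SNRPA, and 0 were lower. Over all genes tested, 1.78% were higher and 2.54% lower at that level. The untested gene was CPSF4L, a paralog of CPSF4. The median log2 fold change of the 68 was 0.031.

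Among 7 further partners of CPSF, 4 were above 0 and 3 below, from -0.044 for the scaffold SYMPK to 0.15 for the hexamer-module subunit FIP1L1. FIP1L1 measured 3.33 and 3.22 FPKM in the DMSO libraries and 3.48 and 3.67 FPKM in the SF1-8 libraries, but its entry also takes in PDGFRA and so does not measure FIP1L1 alone. RBBP6, a ubiquitin ligase that joins the cleavage step, had a log2 fold change of -0.027. Among 7 genes of cleavage factor II and termination, the log2 fold changes were -0.036 for PCF11, 0.023 for CLP1 and 0.034 for the exonuclease XRN2, which was the highest of the list. RPRD1B was the lowest at -0.36, measuring 11.8 and 9.32 FPKM in the DMSO libraries and 12.0 and 4.07 FPKM in the SF1-8 libraries. A single SF1-8 library set that value, since the other lay above both DMSO libraries, and without SF1-8 2 the log2 fold change was 0.23.

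The poly(A) polymerase genes PAPOLA, PAPOLG and PAPOLB had log2 fold changes of 0.058, 0.29 and -0.43, with PAPOLB at an FPKM of at most 0.242 in every library. The PAPOLG value was 0.074 without DMSO 1 and 0.56 without DMSO 2, and that of PAPOLB was 0.76 without DMSO 1 and -1.11 without SF1-8 2. ZC3H14, a nuclear poly(A) binding protein, measured 1.81 and 1.64 FPKM in the DMSO libraries and 2.04 and 2.02 FPKM in the SF1-8 libraries. Its log2 fold change was 0.26 (unadjusted p = 0.0266, adjusted p = 0.970 in edgeR). The ZC3H14 value was 0.27 in DESeq2 (unadjusted p = 0.033). In limma it was 0.16 on log2(FPKM + 1) (unadjusted p = 0.197) and 0.091 on TPM (unadjusted p = 0.707). PABPN1, the nuclear poly(A) binding protein that makes tail synthesis processive, had a log2 fold change of -0.15 in an entry that also holds BCL2L2, which was 0.020 without DMSO 1 and -0.30 without DMSO 2. In the histone pre-mRNA list, values ran from -0.14 for CASP8AP2 to 0.32 for SLBP, the stem-loop binding protein, whose FPKM was 27.4 and 38.8 with DMSO and 38.1 and 43.8 with SF1-8, so that the groups overlapped. Both extremes moved with a single library, SLBP to 0.064 without DMSO 1 and 0.65 without DMSO 2, and CASP8AP2 to -0.23 and -0.036.

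INTS11 and INTS9, relatives of CPSF3 and CPSF2 in the Integrator complex, had log2 fold changes of 0.10 and 0.0095. Their FPKM ratio ran from 0.932 to 1.17, a ratio of mRNA levels only. INTS14 was the highest of 15 Integrator genes at 0.36 (FPKM 7.28 and 6.71 with DMSO, 9.71 and 7.87 with SF1-8, unadjusted p = 0.0401 in edgeR) and INTS12 the lowest at -0.15. INTS14 was at 0.20 (unadjusted p = 0.216 in edgeR) without SF1-8 1 and at 0.51 without SF1-8 2, and INTS12 at -0.049 without DMSO 2 and -0.24 without DMSO 1. SNRPA, the U1 snRNP protein that is known to inhibit polyadenylation of its own pre-mRNA, measured 23.0 and 21.2 FPKM in the DMSO libraries and 27.7 and 26.5 FPKM in the SF1-8 libraries. Its log2 fold change of 0.32 (standard error 0.0804) had the smallest unadjusted p of the 68, 0.00988, with adjusted p = 0.970 in edgeR. With any 1 library left out, the SNRPA value lay between 0.29 and 0.36. It was 0.28 in limma on log2(FPKM + 1) (unadjusted p = 0.0155) and 0.16 in limma on TPM (unadjusted p = 0.413). TPM moved the median of all genes to -0.135. SNRNP70, another U1 protein, was at -0.12. The U2AF subunit genes U2AF1 and U2AF2 were at 0.085 and -0.058. U2AF1 measured 11.4 and 11.5 FPKM in the DMSO libraries and 11.9 and 12.0 FPKM in the SF1-8 libraries, and the transgene cannot be separated from the resident gene in these values. Among 18 deadenylation genes, the deadenylase CNOT7 was lowest at -0.34 and TOB1 highest at 0.61. In both a single library stood apart, SF1-8 1 for CNOT7 at an FPKM of 4.79 and DMSO 2 for TOB1 at 4.81, and without that library the log2 fold changes were 0.11 for CNOT7 and 0.14 for TOB1.

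**Figure D4:**
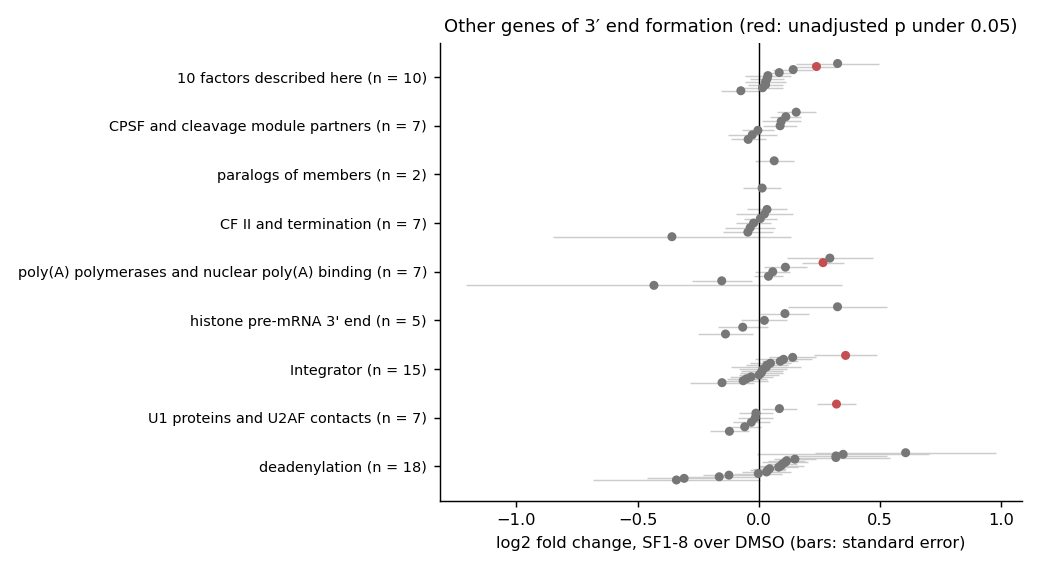
Log2 fold change (SF1-8 against DMSO) of each tested gene in the 10 factors and in the other lists of 3′ end formation. Most genes sit near 0, and the points farthest out are TOB1 at 0.61 and PAPOLB at -0.43.

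The identity of the cells was read from marker genes. The summed FPKM of 7 erythroid marker entries was 278 and 278 with DMSO and 253 and 272 with SF1-8. Of these 7, 3 were lower with SF1-8 without overlap, beside 20.0% of all genes tested. Stromal marker entries, 7 without PDGFRA, summed to 10.1 and 4.94 with DMSO and 2.38 and 0.558 with SF1-8, and all 7 were lower with SF1-8 without overlap, with 5 at an unadjusted p under 0.05 and 0 past the adjusted threshold in edgeR. T cell markers summed to 6.14 and 5.18 with DMSO and 4.44 and 4.25 with SF1-8, with 2 of 4 entries lower without overlap. B cell markers summed to 0.382 and 0.353 with DMSO and 0.460 and 0.502 with SF1-8. Monocyte markers summed to 5.88 and 4.27 with DMSO and 4.58 and 4.42 with SF1-8, which overlapped. The largest entries of the erythroid, T cell and monocyte sums were TFRC, CD3D and LYZ, with mean FPKM of 109, 4.39 and 4.62. No marker entry was at 0 in all libraries. The part of these levels in the values above was not tested. Total counts were between 45522905 and 67554610, the smallest in DMSO 1.

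**Figure D5:**
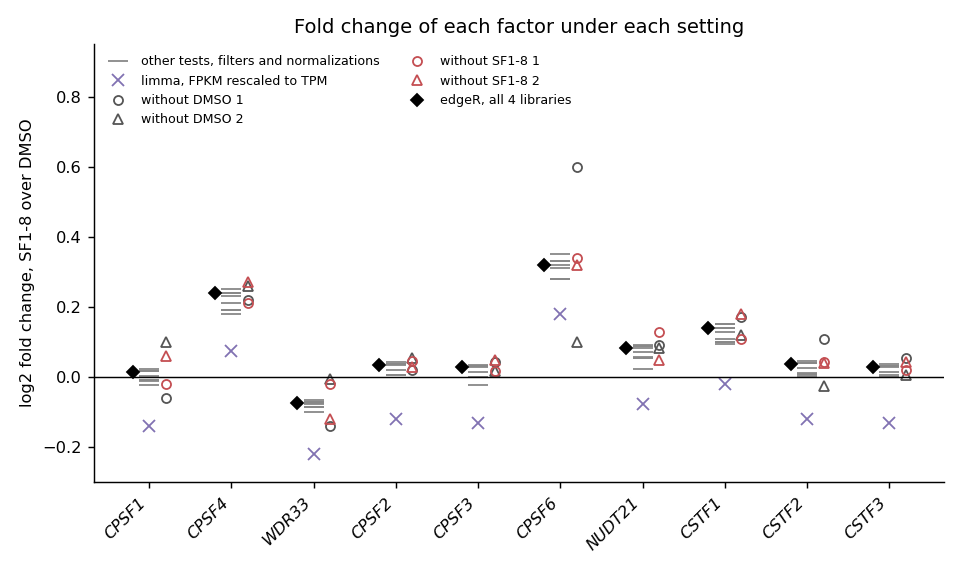
Log2 fold change of each of the 10 factors in edgeR's test and under the 14 alternative settings. CPSF4 (lowest 0.074, with TPM) and CPSF6 (lowest 0.10, without DMSO 2) are above 0 and WDR33 (highest -0.0049, without DMSO 2) is below 0 in every setting, while the other 7 cross 0 in at least 1.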

How the data were processed

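RNA-seq libraries of K562-U2AF1_S34F cells were grouped by the sample labels into DMSO and SF1-8, with 2 libraries each. The sample titles call the DMSO libraries controls, and only the titles of the SF1-8 libraries give the dose and the time. The submitters' processing notes name cutadapt, FastQC, Bowtie2, HISAT2, StringTie and hg38, without versions. Strand use in counting is not given in the sources used here. The authors deposited an FPKM value, normalized for gene length and depth, and a count per library for each of 64873 assembled entries. The deposited counts are whole numbers with 4 as the commonest value above 0, so they were taken as estimated counts and not as single reads, and no counting error was computed. Entries without a gene name (2095, with 0.372% of all counts) were excluded.

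Counts were scaled by TMM (factors 0.973 to 1.05), filtered by filterByExpr, which left 26167 genes, and tested by edgeR's quasi-likelihood test (edgeR 4.0.16, R 4.3.3) with Benjamini-Hochberg adjustment over all of them at 0.05. Alternatives were DESeq2 1.42.0, its scaling within edgeR (RLE), no filter, the replicate number as a block, counts divided by 4, limma 3.58.1 on log2(FPKM + 1) or + 0.1 where FPKM was at least 1 in 2 libraries, the same without that filter, with TPM or quantile scaling, and each library left out. The steps were tested on simulated data. The factors and the other lists were chosen with earlier results of these data known. The text names every factor, 13 set partners, any listed gene with an unadjusted p under 0.05 and each list's extremes. Sequences and transcripts come from GENCODE 29 on GRCh38, with the APPRIS principal transcript and then the longest coding sequence taken for each gene. The site of 1 factor is not reported here.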

Additional observations from a re-analysis of the deposited data

How the results depend on the processing

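None of the 10 factors passed the adjusted threshold in edgeR's quasi-likelihood test or in any of the 14 alternatives, where the smallest adjusted p was 0.283, for CPSF6 without DMSO 1. CPSF4 had an unadjusted p under 0.05 in 7 of the 14, and its log2 fold change was lowest with TPM, at 0.074 (unadjusted p = 0.690 in limma). The number of all genes called was 11, against 164 with DESeq2, 31 without the filter on low counts, 1 in limma on log2(FPKM + 1), 0 in limma with 0.1 added, without its filter or with quantile normalization, and 0 to 30 with each library left out. With the replicate block, edgeR called 0 genes and 971 had an unadjusted p under 0.05. The block changed no call among the factors. The deviations of same-numbered libraries had a correlation of -0.039 over 9956 genes. With 2 libraries per group this cannot tell whether same-numbered libraries were prepared as pairs, and the labels do not say.

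Of 140 values of the factors over the alternatives, 15 changed sign, all in genes that passed no threshold, and of 360 of the other named genes 36 did. In the limma settings on log2(FPKM + 1), with and without the filter, the log2 fold change was -0.0097 for CPSF1, -0.013 for CSTF2T, -0.00082 for CLP1 and -0.014 for INTS9, and with 0.1 added -0.010, -0.014, -0.0010 and -0.016. With quantile normalization it was -0.022 for CPSF1, -0.022 for CPSF3, -0.032 for CSTF2T, -0.017 for INTS9 and -0.0033 for XRN2. With TPM it was -0.14 for CPSF1, -0.12 for CPSF2, -0.13 for CPSF3, -0.078 for NUDT21, -0.020 for CSTF1, -0.12 for CSTF2, -0.13 for CSTF3, -0.0067 for FIP1L1, -0.095 for CPSF7, -0.15 for CSTF2T, -0.13 for CLP1, -0.10 for PAPOLA, -0.15 for INTS9, -0.062 for INTS11, -0.074 for U2AF1 and -0.13 for XRN2. TPM moved the median of all genes to -0.135, and relative to it CPSF1 and WDR33 were the 2 factors below 0. With counts divided by 4, INTS9 was at -0.0027. Without DMSO 1, CPSF1 was at -0.059, PCF11 at 0.087, CLP1 at -0.041, PABPN1 at 0.020, RBBP6 at 0.070, INTS9 at -0.034 and PAPOLB at 0.76. Without DMSO 2, CSTF2 was at -0.025 and SYMPK at 0.0081. Without SF1-8 1, CPSF1 was at -0.021, CSTF2T at -0.022, INTS11 at -0.041, CNOT7 at 0.11 and PAPOLB at 0.036. Without SF1-8 2, RBBP6 was at 0.039, INTS9 at -0.0076 and RPRD1B at 0.23. At the other end of their ranges with a library left out, CPSF1 was at 0.0997, SYMPK at -0.089, PCF11 at -0.14, CSTF2 at 0.11, CSTF2T at 0.057, CLP1 at 0.096, PABPN1 at -0.30, RBBP6 at -0.11, INTS9 at 0.059, INTS11 at 0.24, RPRD1B at -1.34, CNOT7 at -0.97 and PAPOLB at -1.11. The cause of these changes was not tested. With a library left out, the remaining library of its group was assumed to vary like the other group.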
